A study of Mus musculus with 2 samples.

Results

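Solute carriers are membrane proteins that move small molecules and ions across the plasma membrane and across the membranes of organelles. The Slc gene symbols sort them into families by sequence, and members of a family often share a kind of substrate, such as amino acids, sugars, ions, metals or nucleotides. Many of them work as exchangers or use the sodium gradient that the sodium pump maintains, and some reach the cell surface only together with a partner protein. In proliferating mesenchymal cells they supply amino acids, glucose, nucleosides and trace metals for growth.

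The Slc genes were taken as all probe sets whose single symbol in the platform annotation begins with Slc and a digit. A probe set is the group of short probes on the array that measures a transcript. The rule found 185 probe sets for 151 genes of 40 families, out of 8251 genes on the array. All 151 were kept, including Slc9a3r1, Slc9a3r2 and Slc4a1ap, which carry the symbol but encode scaffold or adaptor proteins.

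Total RNA came from clones D16 and D351 of mouse mesoangioblasts, and each of the 2 samples was hybridised to 1 Affymetrix U74A array. Mesoangioblasts are progenitor cells associated with vessels. Both clones derive from C57BL6 embryos at embryonic day 9.5: dorsal aorta was cultured as an explant for 5 days, and single cells were then plated on mitomycin-treated embryonic fibroblasts in RPMI with 20% fetal calf serum. Clones that appeared after 1 week were moved to gelatin. The labels name no treatment or genetic change that separates the groups, and each is a single clone measured once. The comparison asks how far the clones differ in the transcripts of their transporters. No test, standard error or p-value is possible with 1 array per clone. Differences were therefore counted by size, at 2-fold or more.

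Levels are scaled intensities. An intensity of 17.4 was used as a floor, below which a probe set was treated as too dim to rank, and a gene below it in 1 clone has only a bound on its ratio, written as at least N-fold. The only spread that could be measured was between probe sets of the same gene, an SD of 0.52 in the log2 ratio over 806 genes. These probe sets were read on the same 2 arrays, so the SD leaves out variation between arrays, RNA samples and cultures. Across the array, 60.7% of the probe sets that are not controls reached the floor in D16 and 59.3% in D351. For Actb, the 3' control probe set was 1.81 times as bright as the 5' one in D16 and 1.37 times in D351. The same ratio for Gapdh was 1.56 and 1.44. The 9 hybridization controls had a median log2 ratio of D351 over D16 of -0.39.

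The labelled cell type was set against marker genes. Of 6 mesoangioblast markers on the array, 3 reached the floor in each clone. Kit and Kdr were below it in both. Cd34, a surface marker of vascular progenitors, measured 475 in D16 and 6.71 in D351, whereas Pdgfrb (54.4 and 197) and Acta2 (940 and 1685) were higher in D351 and Alpl was near the floor (15.3 and 19.02). The summed levels of the list were 1495 and 1916. All 6 fibroblast markers reached the floor in both clones, with sums of 7063 in D16 and 9423 in D351. They did not move one way: S100a4 (1835 and 414) and Thy1 (1535 and 1041) were higher in D16, and Col1a1, Col1a2, Dcn and Lum in D351. Of the 4 smooth muscle markers, 2 reached it in D16 and 4 in D351, with sums of 1596 and 3774. The endothelial sums were 43.9 and 24.01 over 4 genes, with Cdh5, Tek and Tie1 below the floor in both. Pecam1 was above it in both, at 30.8 in D16 and 20.2 in D351. The haematopoietic sums were 36.2 and 55.6, with Itgam and Ptprc below the floor in both. Cd68 reached it in D351 only (3.74 and 36.9), and Spi1 in D16 only (26.6 and 11.2). The sums of these lists differed between the clones, but the mesoangioblast, fibroblast and haematopoietic genes did not all move one way. The part of the lists in the differences between Slc genes was not tested. In RNA of whole cultures, fewer cells of a type and less RNA per cell cannot be told apart.

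The promoter sequences of 6 Slc genes are shown because their results carry the main contrasts below: 3 genes of the Slc38 family that were all higher in D351, the subunit gene Slc3a2 that was higher in D16, and the zinc transporter genes Slc30a4 and Slc39a3, which differed in opposite directions. Each is the 250 bases before the annotated start in RefSeq, build GRCm38.p6, written 5′ to 3′ on the gene's strand, which is the minus strand for all 6. For Slc38a4 the farthest upstream of 3 annotated starts was used. Capitals mark the GC box letters GGGCGG and the CCAAT box letters CCAAT, each on both strands, with overlapping matches counted.
Slc38a2, chr15:96699729-96699978: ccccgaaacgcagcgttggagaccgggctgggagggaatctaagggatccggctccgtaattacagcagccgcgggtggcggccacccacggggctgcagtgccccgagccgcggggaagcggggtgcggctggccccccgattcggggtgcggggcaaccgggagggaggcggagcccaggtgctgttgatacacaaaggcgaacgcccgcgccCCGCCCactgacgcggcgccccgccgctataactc
Slc38a4, chr15:97055957-97056206: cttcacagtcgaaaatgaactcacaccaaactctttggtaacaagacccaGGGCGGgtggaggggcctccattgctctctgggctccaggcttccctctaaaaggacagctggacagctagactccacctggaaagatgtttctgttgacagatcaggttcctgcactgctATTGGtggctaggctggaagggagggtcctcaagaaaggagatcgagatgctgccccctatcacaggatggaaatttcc
Slc38a10, chr11:120151352-120151601: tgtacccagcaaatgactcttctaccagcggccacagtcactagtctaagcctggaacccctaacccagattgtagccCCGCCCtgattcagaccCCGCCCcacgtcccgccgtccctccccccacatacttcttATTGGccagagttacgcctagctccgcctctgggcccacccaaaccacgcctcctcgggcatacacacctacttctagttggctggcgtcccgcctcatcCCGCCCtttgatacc
Slc3a2, chr19:8713898-8714147: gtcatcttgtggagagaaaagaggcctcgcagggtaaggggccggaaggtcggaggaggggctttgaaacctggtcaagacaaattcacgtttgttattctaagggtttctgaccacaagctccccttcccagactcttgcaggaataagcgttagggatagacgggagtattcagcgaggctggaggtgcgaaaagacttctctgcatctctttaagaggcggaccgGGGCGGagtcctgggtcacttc
Slc30a4, chr2:122702664-122702913: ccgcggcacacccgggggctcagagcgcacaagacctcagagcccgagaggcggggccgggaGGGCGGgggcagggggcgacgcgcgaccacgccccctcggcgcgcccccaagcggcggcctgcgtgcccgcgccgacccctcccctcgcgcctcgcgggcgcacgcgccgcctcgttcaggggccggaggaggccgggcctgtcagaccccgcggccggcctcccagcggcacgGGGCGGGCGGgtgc
Slc39a3, chr10:81037316-81037565: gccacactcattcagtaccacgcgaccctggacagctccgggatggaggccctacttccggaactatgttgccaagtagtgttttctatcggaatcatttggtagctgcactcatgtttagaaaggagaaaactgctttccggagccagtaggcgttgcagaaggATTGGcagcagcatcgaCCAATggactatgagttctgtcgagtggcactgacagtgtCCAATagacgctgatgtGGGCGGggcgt

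All 6 windows held at least 1 GC box, which 32.7% of the 32851 annotated windows of this length hold. Windows of all Slc genes held it in 54.9% of cases, and those of Slc genes past 2-fold in 66.7%. The share of G and C ran from 52.8% in Slc38a4 and Slc39a3 to 82.8% in Slc30a4. A CCAAT box was found in Slc38a4 (1), Slc38a10 (1) and Slc39a3 (3). At least 1 was in 33.8% of all windows and in 26.9% of those of all Slc genes. The letters of an amino acid response element, TGATGNAA on either strand, were in none of the 6 windows and in 3.45% of all windows. The letters of a metal response element, TGCACNC or TGCGCNC on either strand, matched at 2 places in Slc30a4 and 1 in Slc39a3, against 21.4% of all windows with a match. Such matches were not limited to zinc transporter genes: 11 of the 18 Slc genes past 2-fold that have a window held one, in 13 of their 33 windows, as did 24.6% of the windows of all Slc genes. These matches describe the letters only. Of the 151 Slc genes, 124 had a window in the table.

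Of the 151 Slc genes, 106 reached the floor in at least 1 clone: 84 in both, 13 in D16 only and 9 in D351 only. The other 45 were below it in both and have no ratio. Among the 106, D351 exceeded D16 by 2-fold or more in 10, D16 exceeded D351 by as much in another 10, and 86 were not counted as past 2-fold. Of those 86, 66 were measured in both clones and lay within 2-fold, whereas 20 were below the floor in 1 clone and have only a bound, so their difference may be larger. Over all 6098 genes with a ratio, 10.6% had D351 ahead by 2-fold or more and 8.87% had D16 ahead, together 19.4%. The 18.9% of Slc genes past 2-fold is close to that background, so the count is no result about the Slc genes as a set. Their median log2 ratio of D351 over D16 was -0.08, against -0.03 for all genes, with an interquartile range of Slc genes from -0.54 to 0.34.

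With the arrays scaled on the hybridization controls in place of the common median, the Slc counts became 14 with D351 ahead and 4 with D16 ahead, and those of all 6104 genes 1214 and 250. The median of all genes then moved to 0.34 and that of Slc genes to 0.26. Of the 20 genes past 2-fold, 8 stayed past it in all 9 alternative settings with a changed scaling, floor or probe set rule: Slc12a2, Slc30a4, Slc6a9, Slc38a2, Slc38a4, Slc38a10, Slc41a1 and Slc44a2. The direction of all 20 was the same in every setting that gave a value.

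**Figure D1:**
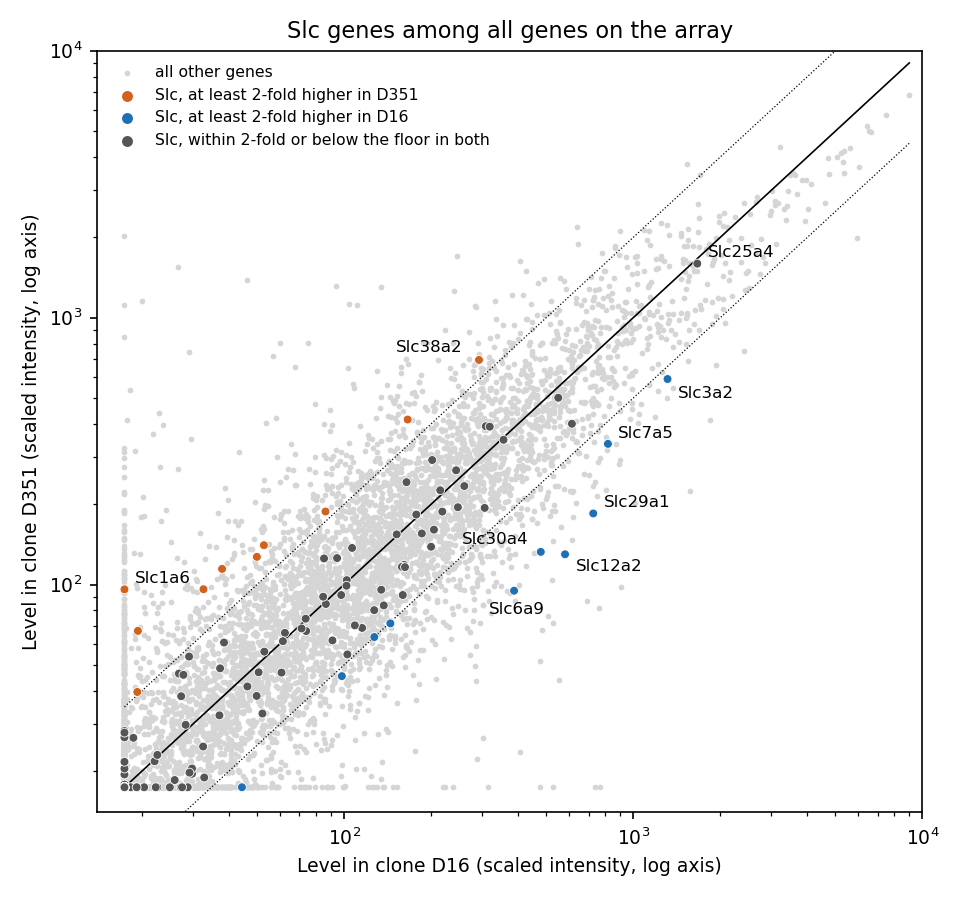
Scaled intensity in D16 (x axis, log scale) against D351 (y axis, log scale), 1 point per gene, with values below the floor drawn at 17.4. Pale grey points are all other genes, and the dotted lines mark 2-fold. Slc genes are orange where D351 was ahead by 2-fold or more, blue where D16 was, and dark grey otherwise. The 10 Slc genes with D351 ahead by 2-fold or more lie above the upper dotted line and the 10 with D16 ahead below the lower one, and the rest follow the diagonal.

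Amino acid transporters were split. Genes of the Slc38 family of sodium-coupled neutral amino acid transporters were higher in D351, while the genes of both chains of the surface exchanger CD98-LAT1 and of a glycine transporter were higher in D16. Of 28 genes in the group, 22 reached the floor in a clone. D351 was ahead by 2-fold or more in 4 of them and D16 in 3, together 31.8%, against 19.4% of all genes. Another 8 have only a bound under 2-fold. The group median was 0.00.

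Slc38a2, which encodes the system A transporter SNAT2, measured 293 in D16 and 694 in D351, a 2.37-fold difference. Slc38a10, a less studied member, measured 166 and 415, 2.50-fold higher in D351. Slc38a4, an imprinted gene for a further system A transporter, measured 37.8 and 114, 3.02-fold higher in D351. Slc38a5, a system N transporter of glutamine and related amino acids, measured 26.8 and 46.4, a 1.73-fold difference that did not reach 2-fold. All 4 Slc38 genes on the array were thus above the floor in both clones and higher in D351, with log2 ratios from 0.79 to 1.60, and all 4 stayed higher in D351 under each of the 4 other scalings. The remaining 3 probe sets of Slc38a2 were below the floor in both clones.

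Slc3a2 encodes the heavy chain of CD98, which carries several light chains to the cell surface. It measured 1313 in D16 and 589 in D351, 2.23-fold higher in D16. Slc7a5 encodes LAT1, the light chain that exchanges large neutral amino acids, and measured 817 and 337, 2.43-fold higher in D16. Both were past 2-fold in 8 of the 9 alternative settings and within it with the hybridization control scaling (log2 ratios of -0.76 and -0.89). Among the other light chain genes that pair with Slc3a2, Slc7a6 measured 32.5 in D16 and 24.7 in D351. The cystine-glutamate exchanger gene Slc7a11 measured 17.8 and 7.22, which gives only a bound, and Slc7a7 and Slc7a8 were below the floor in both clones. With the floor at the 25th percentile, Slc7a11 and Slc7a7 were past 2-fold and higher in D16 (for Slc7a11 a log2 ratio of -1.29, for Slc7a7 just at the 2-fold limit). That floor brought 16 Slc genes past 2-fold, and those of the amino acid group went both ways. Slc7a9 (-1.30) was also higher in D16, whereas Slc3a1 (1.72), Slc7a3 (1.29) and Slc1a2 (1.42) were higher in D351. Slc7a1, a cationic amino acid transporter gene, was below the floor in both clones. Slc3a1, the heavy chain gene that serves cystine uptake in kidney, measured 8.55 in D16 and 28.2 in D351, at least 1.62-fold higher in D351, and its partner Slc7a9 measured 17.9 and 4.17.

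Slc6a9 encodes GlyT1, which takes up glycine. It measured 387 in D16 and 94.8 in D351, 4.08-fold higher in D16. The taurine transporter gene Slc6a6, a relative in the same family, measured 244 and 268. In the Slc6 family as a whole, 9 of 11 genes reached the floor, with a median log2 ratio of -0.38. Of the 9, 1 was past 2-fold, 11.1% against 19.4% of all genes.

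The glutamate transporter gene Slc1a6, best known from Purkinje cells of the cerebellum, measured 2.95 in D16 and 95.9 in D351, at least 5.51-fold higher in D351. It was the largest difference among the Slc genes in that direction. Its bound depends on the floor: with the floor at the 60th percentile its log2 ratio was 0.85. The neutral amino acid exchangers of the same family did not follow it. Slc1a5, a glutamine carrier also known as ASCT2, measured 86.5 and 84.5, and Slc1a4 (ASCT1) measured 152 and 154. Slc1a2, another glutamate transporter gene, measured 5.90 in D16 and 19.4 in D351, just above the floor.

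**Figure D2:**
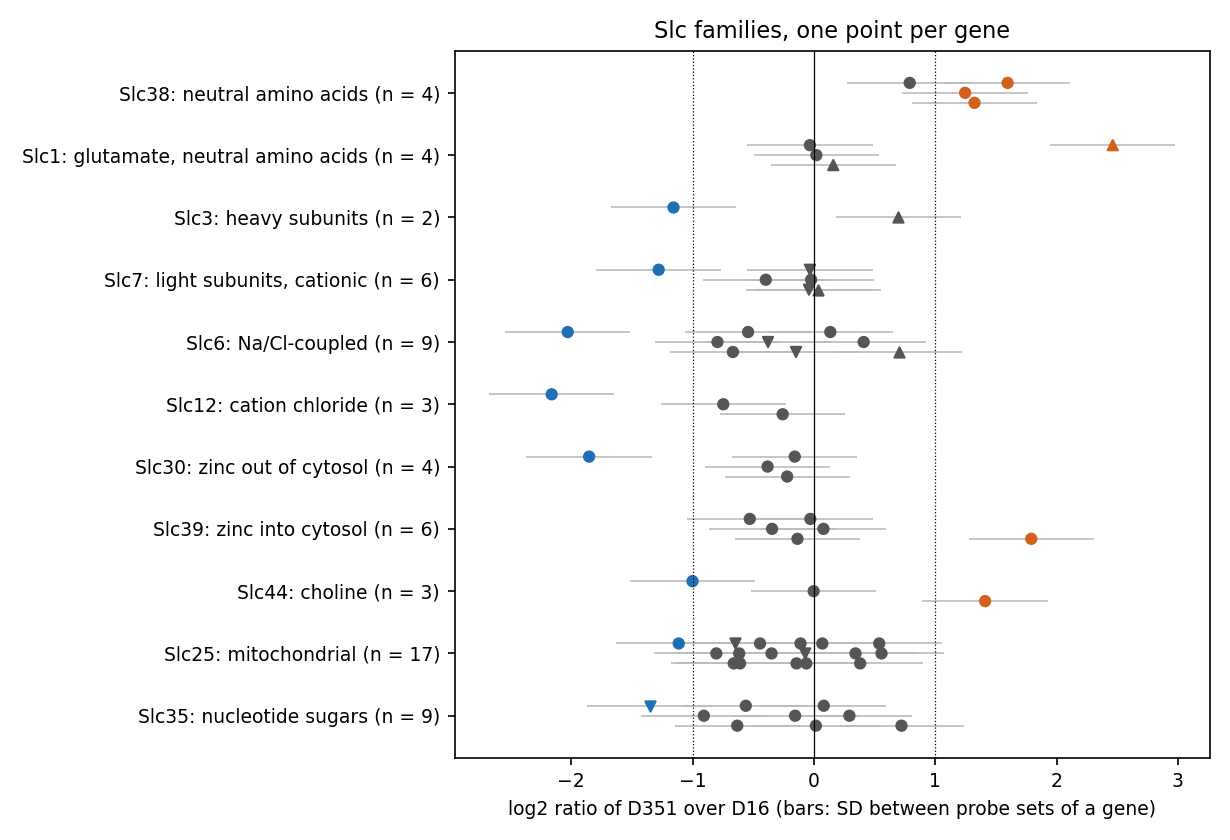
Log2 ratio of D351 over D16 (x axis) for the genes of 11 Slc families (y axis), 1 point per gene with a ratio; bars are the SD of 0.52 between probe sets of a gene, triangles are bounds with 1 clone below the floor, and dotted lines mark 2-fold. All 4 Slc38 genes lie to the right of 0 and the Slc44 genes on both sides, while all Slc30 and Slc12 genes lie to the left, where with the hybridization control scaling only 1 of 4 and 2 of 3 would. A second probe set of Slc30a5, not drawn, gave 0.68.

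Among sugar transporters no gene reached 2-fold, against 19.4% of all genes. Of 10 genes, 5 reached the floor, all in both clones, with a median log2 ratio of -0.38. With 5 measured genes the list is too short for that count to be a result. Slc2a1, which encodes GLUT1, the main glucose carrier of many cultured cells, measured 137 in D16 and 83.5 in D351, 1.64-fold higher in D16. The intracellular glucose carrier gene Slc2a8 measured 60.7 and 46.8, and Slc2a5, a fructose carrier gene, 29.2 and 19.7. All 3 measured Slc2 genes were therefore lower in D351 within 2-fold, but only 2 of the 3 with the hybridization control scaling, under which the median of the sugar group was 0.018. Slc50a1, a sugar efflux gene, measured 178 and 183, and Slc37a4, the glucose-6-phosphate transporter gene of the endoplasmic reticulum, 22.6 and 22.99. Slc2a2, Slc2a3, Slc2a4, Slc5a1 and Slc5a11 were below the floor in both. Lactate and pyruvate carriers gave little signal: Slc16a1 measured 25.95 and 18.5, and Slc16a7 was below the floor. Slc16a8 measured 24.97 and 9.16, at least 1.44-fold higher in D16, with a log2 ratio of -1.45 when the floor was at the 25th percentile.

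The ion transporter gene Slc12a2 showed the largest difference of the Slc genes in the direction of D16. It encodes NKCC1, which brings sodium, potassium and chloride into the cell and takes part in volume control. It measured 581 in D16 and 130 in D351, 4.47-fold higher in D16. The potassium chloride cotransporters of the family, which move the ions out, differed less, and Slc12a4 changed sign with the hybridization control scaling (log2 ratio of 0.14). Slc12a7 measured 115 and 68.8, 1.68-fold higher in D16, and Slc12a4 measured 186 and 155. The other measured ion transporters were within 2-fold, so 1 of 8 was past it, 12.5% against 19.4% of all genes. The phosphate transporter gene Slc20a1 measured 127 and 80.2, 1.59-fold higher in D16, and the sodium-calcium exchanger gene Slc8a1 measured 29.1 and 53.7, 1.85-fold higher in D351. The anion exchanger genes Slc4a2 (107 and 137) and Slc4a3 (84.6 and 90.0) and the sodium-proton exchanger gene Slc9a8 (102 and 104) were close between the clones. Only 8 of the 20 genes of this group reached the floor, and 12 were below it in both clones, among them carriers known from kidney such as Slc12a1, Slc12a3 and Slc34a1.

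In the metal group, 13 of 16 genes were measured, all in both clones, and 3 were past 2-fold, 23.1% against 19.4% of all genes. Slc30a4, which encodes ZnT4 and moves zinc from the cytosol into vesicles, measured 479 in D16 and 133 in D351, 3.61-fold higher in D16. Slc39a3, which encodes the zinc uptake carrier ZIP3, measured 19.4 and 67.0, 3.46-fold higher in D351. Its D16 level was near the floor, and with the floor at the 60th percentile the log2 ratio was 0.33. Slc41a1, a magnesium transporter gene, measured 49.9 and 127, 2.54-fold higher in D351.

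Most zinc transporter genes differed little. The 4 measured genes of the Slc30 family, most members of which lower cytosolic zinc, were all lower in D351. Their log2 ratios ran from -1.85 to -0.16, though only 1 of 4 was lower with the hybridization control scaling. Only Slc30a4 reached 2-fold, and the others lay within the probe set SD of 0. A second probe set of Slc30a5 went the other way, with a log2 ratio of 0.68. Of the 6 measured Slc39 genes, which raise cytosolic zinc, 4 were lower and 2 higher in D351 (1 and 5 with the hybridization control scaling). Slc39a4, counted as lower, had a second probe set with a log2 ratio of 0.16. Slc39a7, the zinc carrier gene of the endoplasmic reticulum, measured 550 in D16 and 501 in D351, Slc39a1 measured 356 and 349, and Slc39a6 measured 247 and 195. Slc30a1, the zinc exporter gene of the plasma membrane, was below the floor in both clones. The copper importer gene Slc31a1 measured 161 and 119, and the iron and divalent metal carrier gene Slc11a2 97.7 and 91.4.

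Mitochondrial carriers of the Slc25 family, which pass metabolites through the inner mitochondrial membrane, were mostly within 2-fold. Of 20 genes, 17 reached the floor. Of these, 14 were measured in both clones and lay within 2-fold, 2 have only a bound under it and 1 was past it, 5.88% against 19.4% of all genes, with a median log2 ratio of -0.14 and a range from -1.11 to 0.56. Slc25a15, the ornithine carrier gene of the urea cycle, was the exception at 98.2 in D16 and 45.4 in D351, 2.16-fold higher in D16. It was within 2-fold in 3 alternative settings, with log2 ratios from -1.16 to -0.72 over all 9.

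The ADP/ATP exchanger gene Slc25a4 measured 1664 in D16 and 1594 in D351, a log2 ratio of -0.06. Its relative Slc25a5 measured 306 and 194, a 1.58-fold difference measured with a probe set whose suffix marks possible matches to other genes. Slc25a39, a carrier gene for mitochondrial glutathione, measured 613 and 400, and Slc25a51, which encodes the NAD carrier, 160 and 91.4, 1.75-fold higher in D16. In the other direction, Slc25a20, which carries acylcarnitines for fatty acid oxidation, measured 164 and 242, 1.47-fold higher in D351. The citrate carrier gene Slc25a1 measured 204 and 161, with the same sign for both of its probe sets. Slc25a36, a pyrimidine nucleotide carrier gene, measured 202 and 293, and Slc25a17, whose product lies in peroxisomes in spite of its family, 309 and 392. Slc25a3, the phosphate carrier gene that oxidative phosphorylation depends on, was below the floor in both clones at 8.65 and 10.5, and a value below the floor does not show that a transcript is absent.

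**Figure D3:**
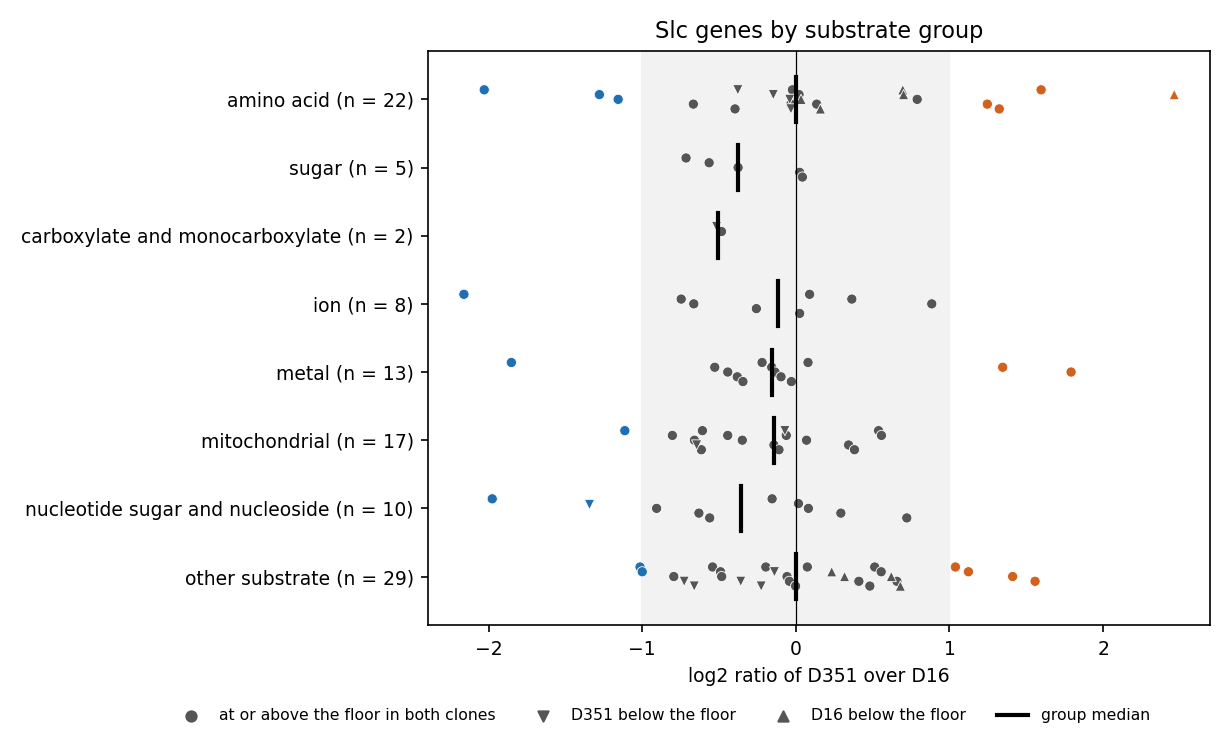
Log2 ratio of D351 over D16 (x axis) for Slc genes in 8 substrate groups (y axis, with the number of genes that have a ratio); circles were measured in both clones, triangles are bounds, the grey band marks differences under 2-fold and black bars are group medians. The amino acid genes spread to both sides around a median of 0.00, while 16 of 17 mitochondrial genes are drawn inside the band, where triangles are lower bounds.

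Nucleoside and nucleotide sugar carriers had a median log2 ratio of -0.36 over 10 measured genes of 11. Of the 10, 2 were past 2-fold, both with D16 ahead, or 20% against 19.4% of all genes. Slc29a1 encodes ENT1, the equilibrative carrier through which cells salvage nucleosides. It measured 727 in D16 and 185 in D351, 3.94-fold higher in D16. A second probe set of Slc29a1 was near the floor in both clones, at 19.9 and 20.1, and gave a log2 ratio of 0.02. Averaged over both, the log2 ratio was -0.98. Slc35g3, an orphan of the nucleotide sugar family, measured 44.3 in D16 and 17.1 in D351, at least 2.55-fold higher in D16. Its D351 value lay just under the floor, and Slc35g3 stayed past 2-fold in 6 of the 8 alternative settings that gave it a value.

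The other measured Slc35 genes, several of which supply the Golgi with activated sugars or sulfate, differed less. Slc35d1, which carries UDP-sugars for proteoglycan chains, measured 103 and 54.7, 1.87-fold higher in D16. The CMP-sialic acid carrier gene Slc35a1 measured 91.1 and 61.8, and the UDP-galactose carrier gene Slc35a2 27.8 and 45.9, 1.65-fold higher in D351. Slc35b2, which carries the sulfate donor PAPS, measured 260 and 234, Slc35b1, which acts in the endoplasmic reticulum, measured 319 and 390.5, and the orphan Slc35e1 52.98 and 56.1. Of the 9 measured Slc35 genes, 5 were lower and 4 higher in D351 (4 and 5 with the hybridization control scaling).

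The remaining 43 genes carry vitamins, choline, fatty acids, organic ions and other substrates, or are scaffolds. Of these, 29 reached the floor, with D351 ahead by 2-fold or more in 4 and D16 in 2. Together these were 20.7%, near the 19.4% of all genes. The choline transporters went apart: Slc44a1 (CTL1) measured 127 in D16 and 63.6 in D351, just at the 2-fold limit, whereas Slc44a2 (CTL2) measured 52.8 and 140, 2.66-fold higher in D351. The third member, Slc44a4, measured 61.4 in each clone. Slc44a1 fell within 2-fold under 3 alternatives, and Slc44a2 under none.

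Slc19a1, the reduced folate carrier gene, measured 144 in D16 and 71.5 in D351, 2.02-fold higher in D16, and its second probe set gave a log2 ratio of -0.56. It stayed past 2-fold in 6 of the 9 alternative settings. The proton-coupled folate carrier gene Slc46a1 measured 11.1 and 27.9, at least 1.60-fold higher in D351. Slc22a17, the receptor gene for lipocalin 2, measured 32.6 and 96.0, 2.94-fold higher in D351. With the floor at the 60th percentile the log2 ratio of Slc22a17 was 0.85. Slc27a4, a fatty acid transport protein gene, measured 19.3 and 39.6, a 2.05-fold difference that rests on a D16 level near the floor. Its relative Slc27a1 measured 28.8 and 7.83, at least 1.66-fold higher in D16. With the floor at the 25th percentile the log2 ratio of Slc27a1 was -1.88. Slc27a4 stayed past 2-fold in 6 of the 8 alternative settings that gave it a value, and not with the values as deposited. Slc9a3r1, the scaffold gene also called NHERF1, measured 86.2 and 188, 2.18-fold higher in D351, and its relative Slc9a3r2 measured 28.3 and 29.8. When 16 was added to each value in place of the floor, Slc9a3r1 was just within 2-fold, with a log2 ratio of 0.996.

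Several widely used carriers of this group were within 2-fold. The vitamin C transporter gene Slc23a2 measured 102 and 99.0. The creatine transporter gene Slc6a8 measured 94.6 and 126, and the haem transporter gene Slc48a1 134 and 95.6. Neurotransmitter carriers were low or below the floor: Slc6a2, the noradrenaline transporter gene, measured 32.8 and 18.9, and Slc6a3 and Slc18a3 were below the floor in both.

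**Figure D4:**
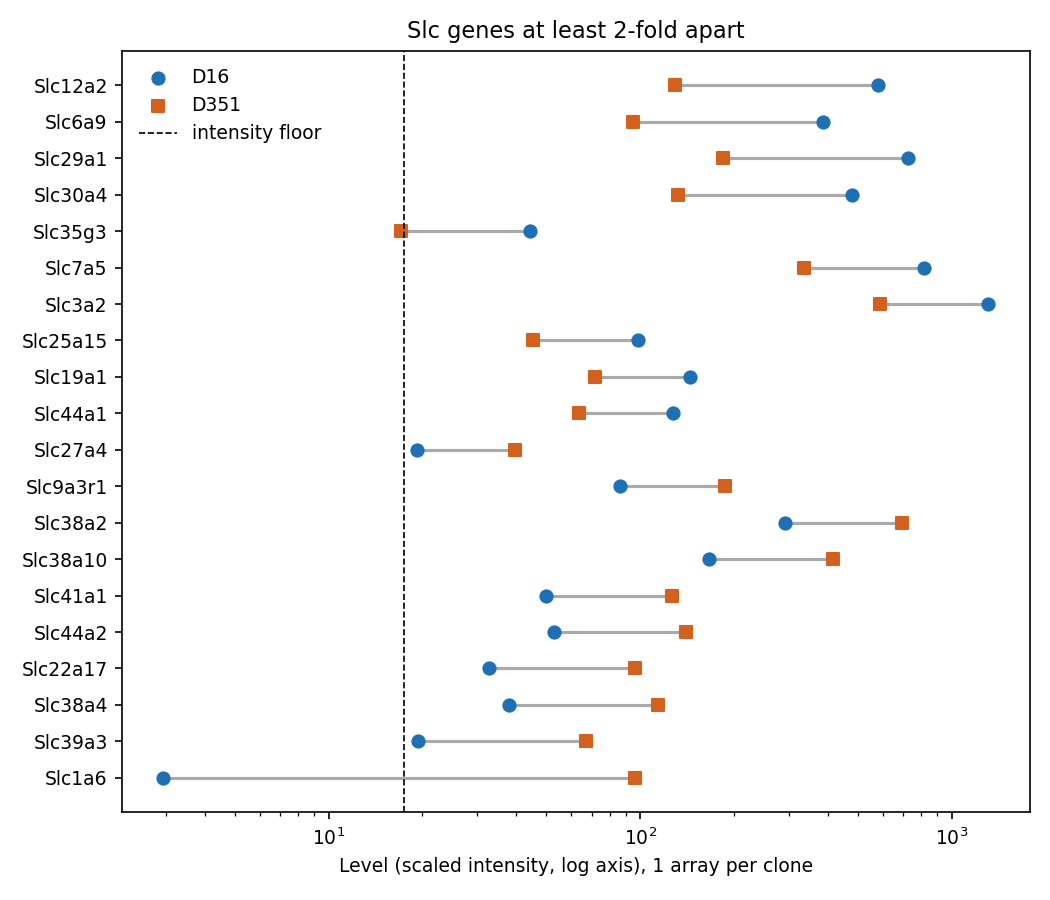
Scaled intensity in D16 (circles) and D351 (squares) on a log axis for the 20 Slc genes at least 2-fold apart, 1 array per clone, ordered by ratio; the dashed line is the floor of 17.4. Slc12a2, Slc6a9, Slc29a1 and Slc30a4 were well above the floor in both clones, whereas Slc1a6, Slc39a3 and Slc27a4 were near or under it in D16.

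Agreement between probe sets could be examined for 12 Slc genes with 2 usable probe sets. In 8 of them the second had the same sign as the first. The signs differed for Slc29a1, Slc30a5, Slc39a4 and Slc23a3. The probe sets of Slc30a5 gave log2 ratios of -0.16 and 0.68, and those of Slc39a4 -0.53 and 0.16. Over the 10 Slc genes with at least 2 probe sets measured in both clones, the SD between probe sets was 0.54, close to the 0.52 of all genes. For 122 of the 151 genes there was only 1 probe set, so their ratios have no internal check.

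**Figure D5:**
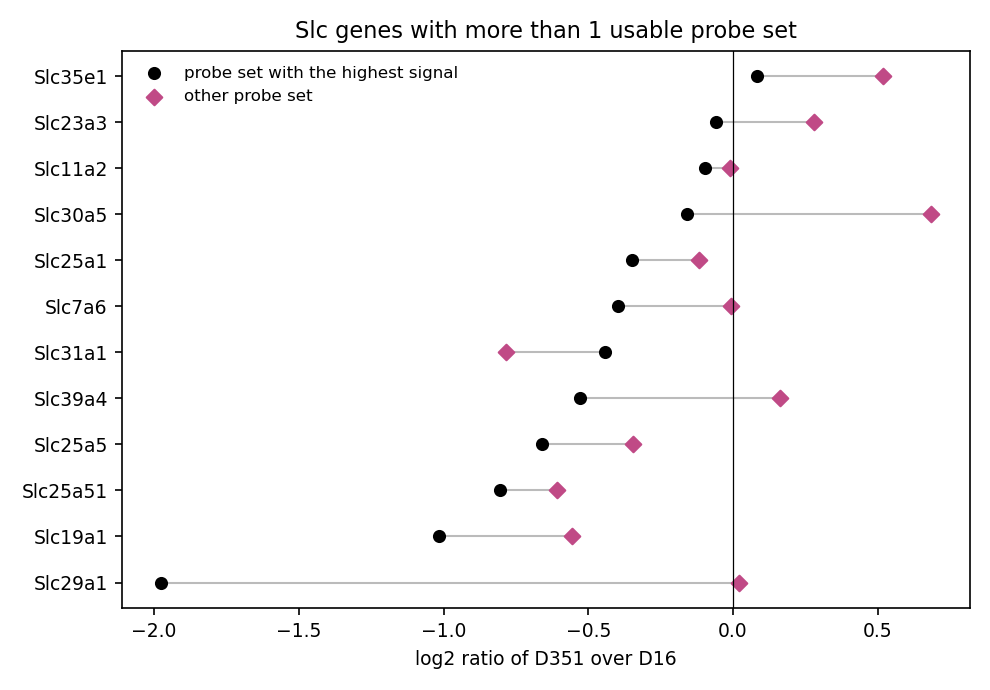
Log2 ratio of D351 over D16 (x axis) for the 12 Slc genes with 2 probe sets at or above the floor (y axis); black circles are the probe set with the higher signal, which stands for the gene, and diamonds the other. The pair for Slc29a1 spans from -1.98 to 0.02, and the other pairs lie within 1 of each other.

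Genes that power or assist the carriers were described from lists of pumps, ABC transporters, aquaporins and partner proteins. Of 76 such genes, 58 reached the floor, with D351 ahead by 2-fold or more in 6, D16 in 7, and a median log2 ratio of -0.10. The share past 2-fold was 22.4%, near the 19.4% of all genes. Among ion pumps, D351 was ahead by 2-fold or more in 1 of 9 and D16 in 3, together 44.4% of a short list. The sodium pump regulators Fxyd5 (135 in D16 and 21.6 in D351) and Fxyd1 (105 and 35.5) were 6.27-fold and 2.95-fold higher in D16, and the calcium pump gene Atp2a3 (40.99 and 19.8) 2.07-fold. The copper pump gene Atp7a measured 39.4 and 150, 3.82-fold higher in D351, and its second probe set was below the floor in D16 and measured 110 in D351. The vacuolar proton pump, which acidifies lysosomes, had 10 of 15 genes higher in D351, with a median log2 ratio of 0.37. Of all 6098 genes with a ratio, 2954 were higher in D351. With the hybridization control scaling 14 of the 15 were higher in D351, but the median of all genes then also moved to 0.34. Only Atp6ap1 (2.52-fold higher in D351) and Atp6v0b (2.18-fold higher in D16) passed 2-fold, 13.3% against 19.4% of all genes.

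Of 19 measured ABC transporter genes, 3 were past 2-fold, 2 with D351 ahead and 1 with D16, or 15.8% against 19.4% of all genes. The peroxisomal gene Abcd3 measured 89.4 and 449, 5.03-fold higher in D351, and the peptide transporter gene Tap1 74.8 and 171, 2.28-fold. Abcb8 of the inner mitochondrial membrane measured 72.1 and 11.7, at least 4.15-fold higher in D16. Of the 3 aquaporin genes that reached the floor, Aqp8 measured 33.9 and 21.1, within 2-fold. Aqp7 (17.1 and 19.1) and Mip (18.8 and 2.85) were below the floor in 1 clone and have only a bound.

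Among 12 measured partners and regulators, 2 were past 2-fold in each direction, 33.3% of a short list, against 19.4% of all genes. Txnip, an arrestin that lowers GLUT1 at the cell surface, measured 67.6 in D16 and 652 in D351, 9.63-fold higher in D351, with a probe set whose suffix marks possible matches to other genes. Its second probe set went the other way, at 54.5 and 32.9, a log2 ratio of -0.73. Sgk1, a kinase that acts on several transporters, measured 174 and 479, 2.75-fold higher in D351. Nedd4l, a ubiquitin ligase that removes transporters from the surface, measured 249 and 121, 2.06-fold higher in D16. Of the monocarboxylate carrier partners, Emb measured 140 and 45.98, 3.04-fold higher in D16, and Bsg measured 956 and 1283.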

How the data were processed

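The authors deposited 1 linear intensity for each probe set and array. What they did to make these values is not given in the sources used here. Each array has a 2% trimmed mean of 100.1, which points to scaling before deposit. No detection call or genome build comes with them. Probe sets were named from an annotation table written for version 2 of this array (the labels give U74A without a version), and symbols were updated by gene number to RefSeq GRCm38.p6, which matched all 185 Slc probe sets.

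Both arrays were brought to a common median log2 level over probe sets reaching the floor in both, with factors of 0.983 (D16) and 1.02 (D351). The floor of 17.4 is the 40th percentile of scaled values of the 12422 probe sets that are not controls, and lower values were raised to it before log2 ratios were taken. The probe set with the highest mean signal stood for each gene. Apart from that rule, the choice of the brightest genes to name and the marker sums, levels were compared only within a probe set. The number of arrays limits the precision. Substrate groups followed the Slc family number, with exceptions for single genes such as Slc6a8, Slc5a6 and Slc35a4. The genes, groups and lists were chosen with earlier results of these data known. Named were all genes past 2-fold, the 3 with the highest signal in each group, those with more than 1 usable probe set, and relatives for comparison, including some below the floor. The functions were tested on simulated arrays. Alternatives changed the scaling, floor, probe set rule and size threshold. Python 3.11.15, numpy 2.4.6, pandas 2.3.3, scipy 1.17.1, statsmodels 0.14.6 and matplotlib 3.10.9 were used.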

Additional observations from a re-analysis of the deposited data

Results flagged for a closer look

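A probe set that can match other genes is annotated to both Slc22a28 and Slc22a30, organic anion transporter genes, and was therefore not counted among the Slc genes. It was picked out because its signal lay above the floor in data that no comparison used: it measured 23.4 in D16 and 22.7 in D351. The probe set that names Slc22a30 alone measured 0.59 and 5.39.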

How the results depend on the processing

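No paired analysis was possible because there is 1 array for each clone, and no replicate could be left out. Against a median of 0.34 for all genes with the hybridization control scaling, medians were 0.26 for all Slc genes, 0.018 for sugar, 0.37 for amino acid, 0.28 for ion, 0.24 for metal, 0.17 for mitochondrial, 0.036 for nucleoside and nucleotide sugar, 0.41 for other substrates and 0.31 for other transport genes. D16 was then ahead by 2-fold or more in 4 Slc genes, and D351 made up 77.8% of those past 2-fold, against 10 of 20 in the report. The share over all genes moved in the same way, from 54.4% to 82.9%. A floor at the 25th percentile left D351 ahead in 16 and D16 in 20 of 131 Slc genes, with medians of 0.033 for sugar genes and -0.20 for other transport genes. A floor at the 60th percentile, which leaves 65 Slc genes, had D351 ahead in 6 and a median of 0.39 for other transport genes. A pseudocount of 16 without a floor had D16 ahead in 6. Counted at 1.5-fold, D351 was ahead in 18 and D16 in 24, and at 3-fold in 3 and 4. The other 91 of 112 counts and medians moved by less than 1.5 times or than the probe set spread allows. Of 901 values of single genes, 876 moved by less than 0.52 and 25 by more, and none of the genes past 2-fold changed direction. Signal over the floor limits genes near 17.4 most.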

Other observations

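Some solute carriers bear other symbols and so fall outside the rule. RefSeq lists an Slc name as a synonym for 4 further genes on the array. Pqlc3, a relative of Slc66a2 that RefSeq also calls Slc66a3, measured 154 in D16 and 553 in D351, 3.58-fold higher in D351, whereas Slc66a2 itself measured 162 and 116. The organic anion transporter gene Slco3a1 measured 49.7 and 49.3. The uncoupling protein genes Ucp1 and Ucp3, which belong to the mitochondrial carrier family, were below the floor in both clones.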
